A study of Sus scrofa with 7 samples.

Results

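The nutrient and nucleoside solute carriers examined here were the 96 rows of the gene tables whose symbol belongs to the SLC1, SLC2, SLC3, SLC5, SLC6, SLC7, SLC15, SLC16, SLC22, SLC28, SLC29, SLC38 or SLC43 family, out of 29510 rows in all. They carry 94 symbols, because SLC38A2 and SLC2A4 are each listed under 2 identifiers. The rule uses the symbol and no measured value, although it was set with earlier results of these data known. RNA was sequenced from 3 lines of porcine extraembryonic endoderm cells (pXEN cells, at passages 26, 26 and 23), 2 lines of porcine naïve-like embryonic stem cells (nESCs, passages 21 and 22) and 2 lines of porcine primed embryonic stem cells (pESCs, both at passage 20). There was 1 library per line, so p-values measure the spread between lines. The question was which carriers of each substrate class were transcribed in each cell type.

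The pXEN lines came from the inner cell masses of parthenogenetic blastocysts. They were grown on mitomycin-C-treated mouse embryonic fibroblasts in LCDM medium, which contained serum replacement, fetal bovine serum, human LIF, CHIR99021, dimethindene maleate, minocycline and Y27632. The nESCs grew on the same kind of feeder in LBX medium, with N2B27, serum replacement, FGF, human LIF, PD0325901, CHIR99021, SB431542 and doxycycline. The pESCs, which the labels describe as converted from naïve-like ESCs, grew on the mouse fibroblast line STO in α-MEM with serum replacement, ITS, activin A, bFGF, EGF and human LIF. Cell type, medium and, for the pESCs, feeder therefore changed together, and their parts in any difference cannot be told apart. In bulk RNA, a change in the number of expressing cells and a change in RNA per cell cannot be told apart either.

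Solute carriers move small molecules through membranes. Members of the SLC2 family let hexoses pass down their gradient, whereas most SLC5 carriers couple sugars, inositol, vitamins or other solutes to sodium. Amino acids are carried by several families: SLC1 and SLC38 by sodium-coupled uptake or exchange, SLC6 with sodium and chloride, and SLC7 light chains by exchange, many of them bound to the heavy chain SLC3A1 or SLC3A2. SLC15 carriers take up small peptides with protons, SLC16 carriers move lactate, pyruvate and related acids, SLC22 carriers move organic ions and carnitine, SLC28 carriers concentrate nucleosides with sodium, and SLC29 carriers let nucleosides equilibrate. The yolk sac endoderm, to which extraembryonic endoderm gives rise, is known as an absorptive epithelium.

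Between 10408164 and 12995720 reads were counted on genes per library. The floor of detection used here, 3 counts, corresponded to 0.231 to 0.288 CPM (counts scaled by the library total) and covers counting error only. Levels below are in FPKM, fragments scaled by gene length and library, as deposited by the authors, and log2 fold changes were estimated from the counts with edgeR. A member was called when its Benjamini-Hochberg adjusted p from the quasi-likelihood test was below 0.05 over all 17447 genes tested. All 6 endoderm markers checked were called in favour of the pXEN lines against each ESC type, whereas the pluripotency markers did not separate the cell types in 1 direction. POU5F1 had at most 5 counts in every library, ESC lines included, and of the 3 such markers tested SOX2 was called lower in pXEN cells than in each ESC type, while NANOG and SALL4 were called higher. NANOG had 177, 60 and 166 counts in pXEN lines and between 0 and 22 in ESC lines. Summed over 7 trophectoderm genes, levels were 79.3 and 77.7 FPKM in the pESC lines and 11.2 and 15.3 FPKM in the nESC lines. In pXEN lines 1, 2 and 3 this sum was 35.2, 34.1 and 37.2 FPKM. TFAP2C and TEAD4 held most of it in the pESC lines. The part of such cells in the carrier differences was not tested. The library of pXEN line 2 stood apart from pXEN lines 1 and 3. Its summed level over 12 rows of fibroblast genes was 253 FPKM, against 18.1 and 21.4 FPKM in pXEN lines 1 and 3, 32.1 and 37.9 FPKM in the nESC lines and 63.9 and 96.2 FPKM in the pESC lines. In pXEN line 2, COL1A1, on a listed model of 246 bases, and COL3A1 held most of this sum, at 144 and 77.5 FPKM. TWIST1, TWIST2, DCN and PDGFRB were lower in pXEN line 2 than in each pESC line. The library of pXEN line 2 also held 38 counts on chromosome Y genes. This was against 1 and 3 in pXEN lines 1 and 3, 11 and 4 in the nESC lines and 0 and 1 in the pESC lines. It held 30 counts of SOX2, which had none in pXEN lines 1 and 3. The part of this in the results was not tested, and members whose calls changed without line 2 are named below.

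Carrier transcripts took up a larger part of the library in pXEN cells than in either ESC type. The 96 members together held 0.988%, 0.873% and 0.995% of the counts in pXEN lines 1, 2 and 3. They held 0.254% and 0.240% in the nESC lines and 0.430% and 0.434% in the pESC lines, so the cell types did not overlap. Summed over members, the levels were 3669, 3418 and 3625 FPKM in pXEN cells, 839 and 796 FPKM in nESCs and 1514 and 1585 FPKM in pESCs. The 5 most abundant members of a library made up 67.6% to 72.0% of this sum in pXEN lines, 58.3% to 60.3% in nESC lines and 59.8% to 60.9% in pESC lines. In pXEN lines those 5 were the glucose carriers SLC2A3 and SLC2A1, the nucleoside carrier SLC28A3, the amino acid exchanger SLC7A8 and the monocarboxylate carrier SLC16A1. Both nESC lines were led by SLC16A1, followed by the glutamine carrier SLC1A5, and both pESC lines by SLC2A3, followed by SLC16A1 and SLC1A5.

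At 1 FPKM or more in every line, 44 members were found in pXEN cells, 35 in nESCs and 43 in pESCs, and 26 members reached this level in all 7 libraries. SLC2A2, SLC5A2 and SLC22A18 reached it in all pXEN lines and stayed at 3 counts or fewer in every ESC line. SLC6A15 and SLC7A3 showed the opposite pattern, with 1 FPKM or more in all ESC lines and at most 3 counts in each pXEN line. SLC2A5 was at the floor in nESCs alone, and SLC5A7 was above it at 1 FPKM or more in pESCs alone. Of the 96 members, 13 had 3 counts or fewer in every library, and SLC6A18, SLC15A5 and SLC22A11 had no count at all.

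**Figure D1:**
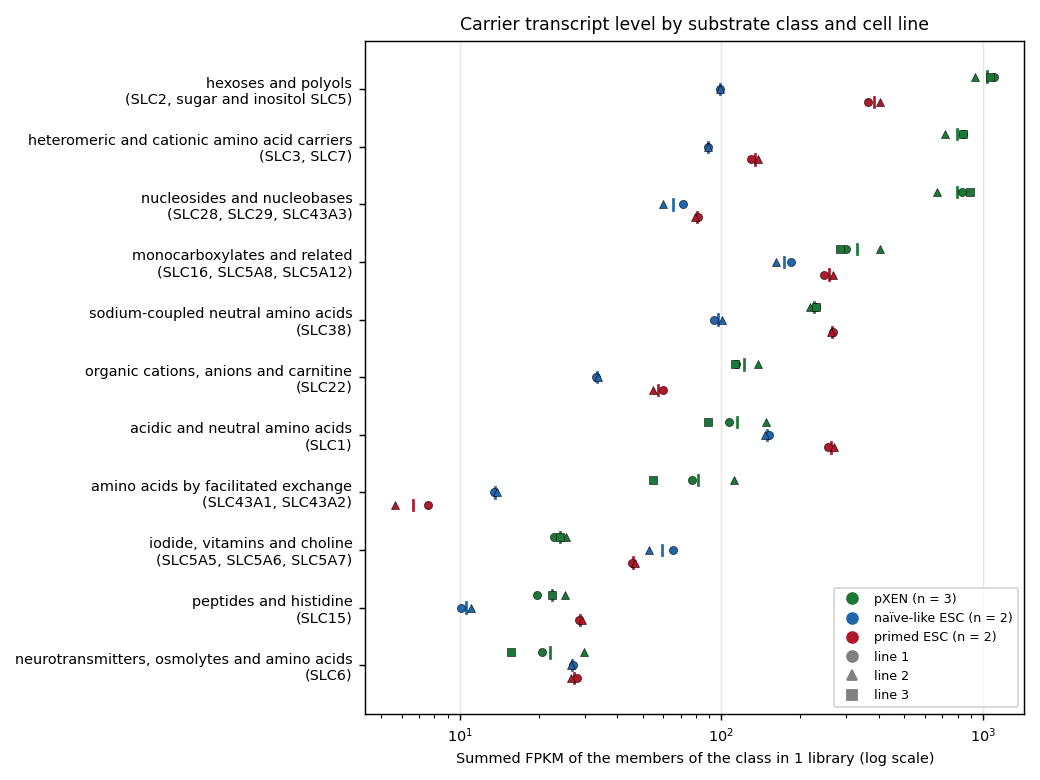
Summed FPKM (log axis) of the members of each substrate class, 1 point per library and shaped by line number, with a vertical bar at the mean of each cell type. pXEN cells lay highest for hexoses, heteromeric amino acid carriers, nucleosides, monocarboxylates, SLC22 and SLC43, whereas pESCs lay highest for SLC1, SLC38 and SLC15 and nESCs for iodide, vitamins and choline.

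The plot of summed levels by substrate class separated the cell types differently from class to class. Hexose and polyol carriers summed to 1032 ± 92.0 FPKM in pXEN cells (SD, n = 3), 98.6 ± 0.144 FPKM in nESCs (SD, n = 2) and 383 ± 28.2 FPKM in pESCs (SD, n = 2). Nucleoside carriers summed to 798 ± 114 FPKM in pXEN cells against 65.6 ± 7.84 FPKM in nESCs and 80.6 ± 1.60 FPKM in pESCs. The order was another for the SLC1 family, with 115 ± 30.9 FPKM in pXEN cells, 150 ± 3.2 FPKM in nESCs and 263 ± 10.5 FPKM in pESCs. The pXEN lines overlapped with the nESC lines here, because pXEN line 2, at 149 FPKM, lay between the nESC lines, at 152 and 147 FPKM. The SLC6 members had sums that overlapped, at 22.0 ± 7.19, 26.9 ± 0.387 and 27.3 ± 1.00 FPKM, with different members behind them. All these sums leave out the 20 rows of the same families that carry no symbol, among them SLC6A8, whose level in pXEN cells exceeded the SLC6 sum.

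edgeR's filter on low counts kept 71 members. A member kept through the cell type in which it was high was bound to differ, so the counts below describe the tested members and support nothing by themselves. Against nESCs, 35 members were called higher and 17 lower in pXEN cells, which is 73.2% of those tested, while 54.5% of all genes tested were called. Against pESCs, 26 were called higher and 18 lower, which is 62.0%, while 48.3% of all genes were called. Between the ESC types, 24 were called higher and 7 lower in pESCs, which is 43.7%, while 32.2% of all genes were called. The 7 lower calls fell to 2 without nESC line 1 or pESC line 1 and to 1 without pESC line 2, and over all omissions of 1 line they ranged from 1 to 10. By direction, the calls over all genes were 28.3% higher and 26.2% lower, 23.9% higher and 24.4% lower, and 19.0% higher and 13.3% lower in these comparisons. The other 143 tested genes with an SLC symbol were called in 60.1%, 46.9% and 35.7% of cases. With at least 10 counts required in every library, 29 members remained in the test. Of these 16 were called higher and 5 lower in pXEN cells against nESCs, where 27.5% and 27.1% of all genes were so called, 10 higher and 6 lower against pESCs (23.5% and 22.6%), and 12 higher and 3 lower in pESCs against nESCs (16.8% and 14.9%). The 3 comparisons share libraries and are not independent of each other.

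Large differences were common among the tested members. The median absolute log2 fold change over the tested members was 2.79 between pXEN cells and nESCs, 1.62 between pXEN cells and pESCs and 1.11 between the ESC types. Over all genes tested it was 0.81, 0.67 and 0.55. Called differences beyond 4-fold were found for 40 members (56.3%) against nESCs, 32 (45.1%) against pESCs and 20 (28.2%) between ESC types, compared with 23.2%, 20.5% and 13.5% of all genes. The signed medians of the members were 0.85, 0.00 and 0.72. Without pXEN line 2, the members called were 35 higher and 20 lower against nESCs, and 26 higher and 22 lower against pESCs. Against nESCs, SLC7A1 was then also called higher and SLC2A12, SLC2A13 and SLC16A7 lower, and SLC38A2 (ENSSSCG00000000808) was no longer called. SLC16A7, at 2.37 FPKM in line 2 against 0.168 and 0.413 FPKM in lines 1 and 3, moved from an uncalled log2 fold change of 0.39 to −1.37. Against pESCs, SLC15A1, SLC16A7, SLC22A17 and SLC38A4 were also called lower and SLC16A9 higher, and SLC15A2 was no longer called. In pESCs against nESCs, SLC16A1 and SLC38A2 (ENSSSCG00000000808) were also called higher and SLC1A1, SLC22A5 and SLC38A9 lower.

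**Figure D2:**
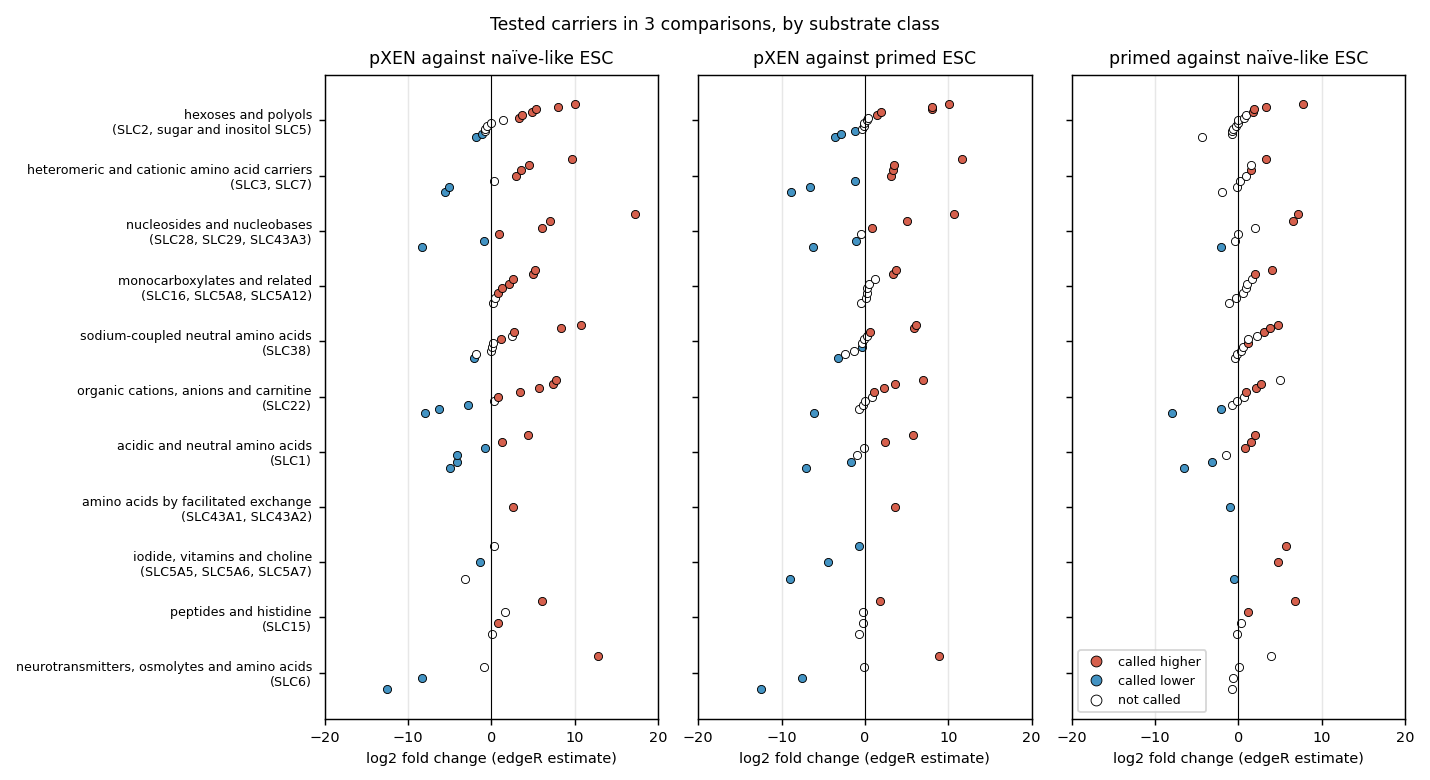
edgeR log2 fold changes of the 71 tested members in the 3 comparisons, by substrate class, with 1 point per member and the fill showing whether it was called. Every class with at least 4 tested members held uncalled members in some comparison. SLC1, SLC6, SLC7, SLC22, SLC38, hexose and nucleoside carriers held called members in both directions between pXEN cells and either ESC type.

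By pattern over the comparisons, 16 members (22.5% of those tested) exceeded both ESC types in pXEN cells, with no call between nESCs and pESCs, as did 11.7% of all genes tested. SLC2A1, SLC2A3, SLC22A23, SLC28A3 and SLC38A3 exceeded both ESC types in pXEN cells and nESCs in pESCs, so that the 3 cell types were graded, which is 7.04% of the tested members and 5.31% of all genes. In the opposite direction, SLC1A5, SLC1A6, SLC5A4, SLC7A3 and SLC38A1 were lower in pXEN cells than in both and higher in pESCs than in nESCs, also 7.04%, against 1.51% of all genes. A further 7 members, SLC1A4, SLC15A1, SLC15A4, SLC16A5, SLC16A9, SLC22A6 and SLC22A17, were called higher in pXEN cells and in pESCs than in nESCs, with no call between the first pair, which is 9.86% against 4.91% of all genes. A missing call does not show that levels were alike. Some calls of these patterns rested on single lines or on the scale. Among the 16 members, SLC22A7 lost its call against pESCs when any 1 line other than pXEN line 2 or pESC line 2 was left out, and with DESeq2, no filter or the replicate block. SLC16A8 lost its call against nESCs without nESC line 1, and against pESCs without pESC line 2 or with the block. In the graded group, the calls of SLC28A3 and SLC38A3 between the ESC types were lost with limma on log2(FPKM + 1) (adjusted p = 0.118 and 0.0760), and that of SLC28A3 also without either nESC line. In the opposite group, 4 of the 5 members lost the pattern when 1 line was left out. SLC1A5 lost its call between the ESC types without pXEN line 1 or any 1 ESC line, SLC1A6 without nESC line 1 or either pESC line, SLC38A1 without line 1 of either ESC type, and SLC5A4 without either nESC line or pESC line 1, with DESeq2 and with the block. SLC1A5 and SLC5A4 also lost their calls between pXEN cells and nESCs without pXEN line 1 or either nESC line, and SLC5A4 with limma on log2(FPKM + 1) and with the block. Among the 7 members, SLC16A9 lost its call between the ESC types without nESC line 2 and with limma on log2(FPKM + 1), and SLC22A6 was called between pXEN cells and pESCs without pESC line 1. Without pXEN line 2, 3 of the last 7 members were called between pXEN cells and pESCs: SLC15A1 (log2 fold change −1.34, adjusted p = 0.00178) and SLC22A17 (−0.37, adjusted p = 0.00607) were lower and SLC16A9 (1.55, adjusted p = 0.0101) was higher in pXEN cells. No call was made in any comparison for 11 members (15.5%), against 31.4% of all genes. The plot of fold changes by class shows called members on both sides of 0 in most amino acid carrier classes.

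Among the hexose carriers, the abundant members rose from nESCs through pESCs to pXEN cells. SLC2A3, a high-affinity glucose carrier (ENSSSCG00000022925, chromosome 5, 65800934 to 65810886 in Sscrofa10.2), was at 758, 581 and 747 FPKM in pXEN lines 1, 2 and 3. It was at 74.8 and 69.8 FPKM in the nESC lines and at 247 and 273 FPKM in the pESC lines, with no overlap between any of the cell types. Its log2 fold change was 3.26 in pXEN cells against nESCs (SE 0.15, adjusted p = 2.64e-06), 1.43 against pESCs (SE 0.14, adjusted p = 0.000124) and 1.83 in pESCs against nESCs (SE 0.15, adjusted p = 0.000121). SLC2A1, the widespread basal glucose carrier, was at 326, 313 and 294 FPKM in pXEN cells, 7.18 and 8.54 FPKM in nESCs and 73.0 and 90.0 FPKM in pESCs. The differences had log2 fold changes of 5.30 (SE 0.17, adjusted p = 5.4e-07), 1.94 (SE 0.14, adjusted p = 2.47e-05) and 3.36 (SE 0.16, adjusted p = 1.02e-05) in the same order. The listed gene model of SLC2A1 is only 861 bases long and lies within the interval of ERMAP on the same strand, which had at most 3 counts in a library. The ratio of SLC2A1 to other genes therefore depends on a short model, while its comparison between lines does not use the length.

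Among the other sugar carriers, SLC2A8, SLC2A11 and SLC5A3 were at 1 FPKM or more in all 7 libraries, while some members were found mainly in 1 or 2 cell types. SLC2A2, a low-affinity hexose carrier of liver, pancreatic islets and absorptive epithelia, was at 4.90, 10.9 and 3.13 FPKM in pXEN cells and had no count in any ESC line. Set against the floor of 3 counts per library it was at least 45.1-fold higher than in nESCs (adjusted p = 0.00127) and at least 49.8-fold higher than in pESCs (adjusted p = 0.00146). Without pXEN line 2, where it was highest, these bounds were 28.5-fold and 31.5-fold. It lies on chromosome 13, whose tested genes had medians of 0.46 and 0.40 on the log2 scale in these comparisons, as do SLC38A3 and SLC5A3. SLC5A2, a sodium-coupled glucose carrier best known from the kidney, was at 1.70, 1.03 and 1.67 FPKM in pXEN cells with no count in ESCs, at least 10.7-fold and 11.9-fold higher. The fructose carrier SLC2A5 had another order. It was at 25.8 and 24.6 FPKM in pESCs, 2.42, 5.46 and 2.37 FPKM in pXEN cells and 0.179 and 0 FPKM in nESCs. It was called lower in pXEN cells than in pESCs (log2 fold change −2.85, SE 0.46, adjusted p = 0.0014), and its ratio of pESCs to nESCs, with 1 count in the nESC lines, was 274 (95% counting interval 48.8 to 10854). Its listed model is 461 bases on an unplaced scaffold. SLC2A10 was at 1.35 to 1.92 FPKM in pXEN cells and at most 0.182 FPKM in any ESC line. Of the 13 tested members of the class, 6 were called higher and 2 lower in pXEN cells against nESCs, 5 higher and 3 lower against pESCs, and 4 higher and none lower in pESCs against nESCs, beside 54.5%, 48.3% and 32.2% of all genes called in either direction. The inositol carrier SLC5A3 was among the lower ones, at 3.71, 3.23 and 4.98 FPKM in pXEN cells and 6.23 and 10.7 FPKM in nESCs (log2 fold change −1.09, SE 0.30, adjusted p = 0.0157), a call lost without nESC line 2.

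Nucleoside carriers changed in makeup as well as in sum. SLC28A3, a sodium-coupled carrier of purine and pyrimidine nucleosides (ENSSSCG00000010960, chromosome 10, 34734230 to 34768182), was at 706, 557 and 768 FPKM in pXEN cells and made up 83.1% to 86.4% of the summed FPKM of the class there. It had no count in nESCs and was at 0.190 and 0.624 FPKM in pESCs, where it made up 0.233% to 0.785% of the class. In pXEN cells it was higher than in pESCs with a log2 fold change of 10.67 (SE 0.40, adjusted p = 4.83e-06), or 10.08 and 11.76 without pESC line 1 and 2. SLC29A1, the common equilibrative carrier, took the lead in ESCs, with 88.6% to 89.9% of the class in nESCs and 72.1% to 72.4% in pESCs. Its own level was nevertheless higher in pXEN cells, at 112, 105 and 104 FPKM against 63.1 and 54.0 FPKM in nESCs and 59.2 and 57.3 FPKM in pESCs. These log2 fold changes were 0.87 (SE 0.10, adjusted p = 0.000263) and 0.89 (SE 0.10, adjusted p = 0.000312), and SLC29A1 was not called between the ESC types (−0.02, SE 0.11, adjusted p = 0.918).

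The remaining nucleoside carriers included 1 that was missing from pXEN cells. SLC29A2, a second equilibrative carrier, had no count in pXEN cells, 2.94 and 1.93 FPKM in nESCs and 0.751 and 0.433 FPKM in pESCs. It was at least 12.0-fold lower in pXEN cells than in nESCs (adjusted p = 0.000688) and at least 2.89-fold lower than in pESCs (adjusted p = 0.00477). SLC29A4, which carries monoamines and adenosine, was at 11.5, 4.94 and 8.98 FPKM in pXEN cells, 0.0455 and 0.189 FPKM in nESCs and 18.4 and 17.3 FPKM in pESCs. It was called higher in pESCs than in nESCs (log2 fold change 7.18, SE 0.59, adjusted p = 0.000124), with estimates of 6.50 and 8.43 without nESC line 1 and 2. Its lower level in pXEN cells than in pESCs (−1.07, SE 0.33, adjusted p = 0.0289) lost its call without pXEN line 3 or either pESC line. The call was also lost with limma on log2(FPKM + 0.1) (adjusted p = 0.0668). SLC28A2, a purine nucleoside carrier, was at 2.50, 1.20 and 5.14 FPKM in pXEN cells and at most 0.137 FPKM in ESCs. Among enzymes that phosphorylate nucleosides after uptake, UCK1 was higher in pXEN cells than in nESCs (log2 fold change 0.83, SE 0.10, adjusted p = 0.000255) and in pESCs (0.33, SE 0.10, adjusted p = 0.0247), while ADK and DCK were called in no comparison.

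**Figure D3:**
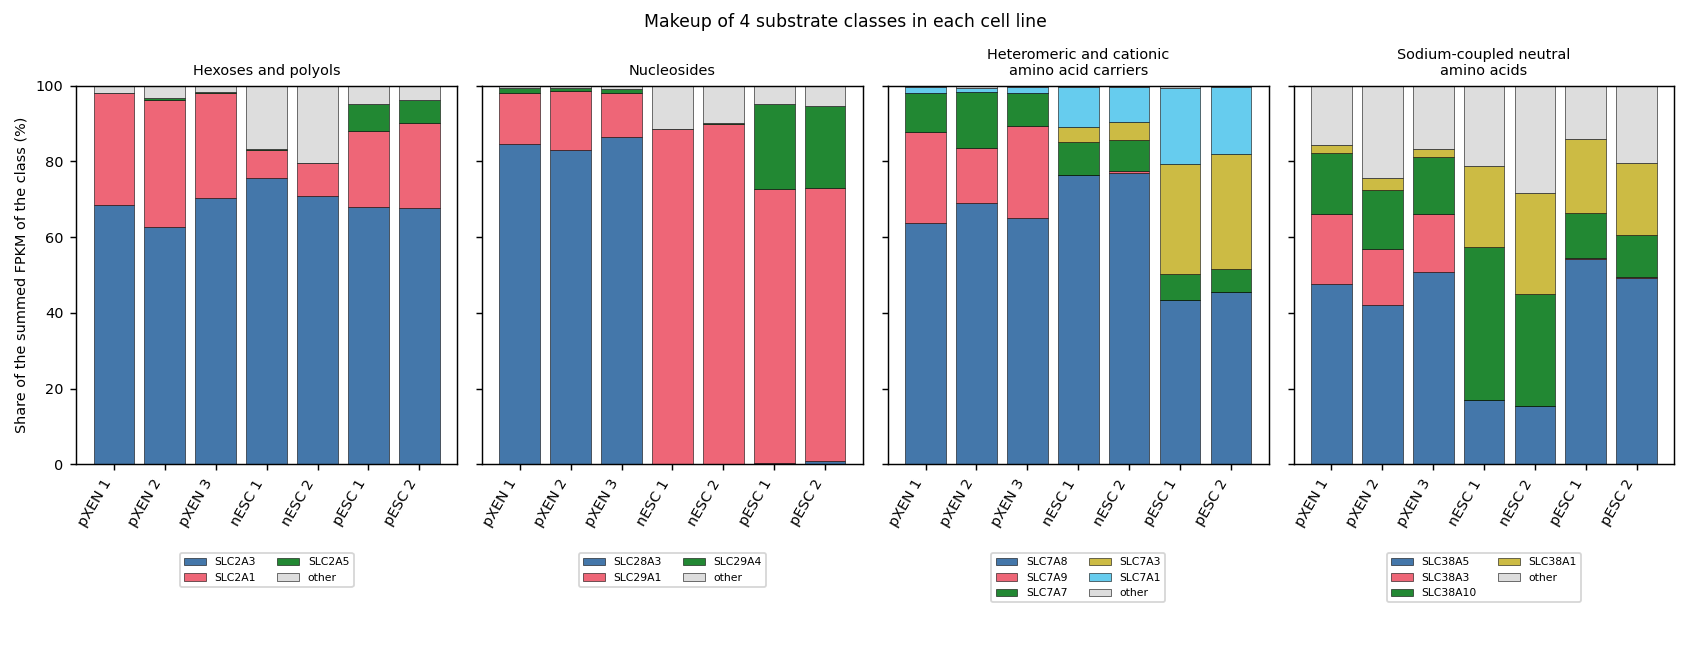
Share (%) of the summed FPKM of 4 substrate classes held by single members in each library, as stacked bars that start at 0. SLC28A3 filled most of the nucleoside bar in pXEN lines and SLC29A1 in ESC lines, and SLC7A3 held 29.3% to 30.2% of its class in pESC lines against 0.00537% to 0.0143% in pXEN lines. The shares leave out rows without a symbol, such as SLC7A2, SLC7A11 and SLC3A2, the last at 139 and 165 FPKM in pESC lines.

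The heteromeric and cationic amino acid carriers showed a change of members between cell types. SLC7A8, a light chain that exchanges neutral amino acids (ENSSSCG00000002032, chromosome 7, 81241895 to 81260081), was at 533, 495 and 549 FPKM in pXEN cells, 68.0 and 68.5 FPKM in nESCs and 56.3 and 63.1 FPKM in pESCs. It was higher in pXEN cells than in nESCs (log2 fold change 2.94, SE 0.11, adjusted p = 1.15e-06) and pESCs (3.15, SE 0.11, adjusted p = 2.11e-06). SLC7A7, a light chain that exports cationic amino acids from epithelial cells and lies on the same strand of chromosome 7 from 81441334 to 81477745, was at 86.5, 107 and 72.5 FPKM in pXEN cells and between 7.33 and 8.68 FPKM in every ESC line. Its log2 fold changes were 3.56 (SE 0.19, adjusted p = 3.95e-06) and 3.38 (SE 0.18, adjusted p = 8.01e-06). Neither light chain was called between the ESC types. SLC7A9, the light chain for cystine and cationic amino acids in kidney and gut, was at 200, 104 and 205 FPKM in pXEN cells, 0.0499 and 0.363 FPKM in nESCs and 0 and 0.0898 FPKM in pESCs. Its log2 fold change against nESCs was 9.65 (SE 0.60, adjusted p = 8.44e-06; 8.82 and 11.55 without nESC line 1 and 2), and its ratio to pESCs, which held 2 counts in all, was 3631 (95% counting interval 1005 to 29989). The SLC7A9 interval overlaps ANKRD27 on the same strand and NUDT19 on the other.

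The heavy chains are listed in the tables without a symbol and are therefore no members, but they could be matched by gene identifier. SLC3A2, the partner of SLC7A7 and SLC7A8, was at 376, 411 and 385 FPKM in pXEN cells, 99.0 and 95.7 FPKM in nESCs and 139 and 165 FPKM in pESCs. It was higher in pXEN cells than in nESCs (log2 fold change 2.00, SE 0.12, adjusted p = 6.35e-06) and pESCs (1.37, SE 0.11, adjusted p = 5.39e-05). SLC3A1, the partner of SLC7A9, was at 53.1, 68.9 and 45.8 FPKM in pXEN cells and at most 0.119 FPKM in any ESC line. SLC7A7, SLC7A8 and SLC7A9 thus had their partners at a higher level in the same cell type. SLC7A11, the cystine and glutamate exchanger, which also pairs with SLC3A2, was another unlabelled row and was highest in pESCs, at 12.4 and 15.1 FPKM against 1.82 to 4.11 FPKM in pXEN cells and 0.230 and 0.358 FPKM in nESCs.

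In contrast, SLC7A3 and SLC7A1, carriers of cationic amino acids that work without a heavy chain, were highest in pESCs. SLC7A2, a further carrier of this kind listed without a symbol, was at 1.73 and 0.848 FPKM in pESCs and 0.889 and 1.23 FPKM in nESCs and was not called between them (log2 fold change 0.27, SE 0.69, adjusted p = 0.804). It had 3 counts in pXEN cells, all in line 2, and was called lower there than in nESCs (adjusted p = 0.00189) and pESCs (adjusted p = 0.00169). SLC7A3, on chromosome X, was at 38 and 41.9 FPKM in pESCs, 3.65 and 4.35 FPKM in nESCs and 0.0449, 0.0769 and 0.121 FPKM in pXEN cells. Its log2 fold changes were −8.84 in pXEN cells against pESCs (SE 0.25, adjusted p = 8.88e-07), −5.53 against nESCs (SE 0.28, adjusted p = 3.28e-06) and 3.31 in pESCs against nESCs (SE 0.18, adjusted p = 2.1e-05). SLC7A1, the widespread member of this group, was at 25.7 and 24.4 FPKM in pESCs, 13.3, 7.24 and 13.2 FPKM in pXEN cells and 9.42 and 8.19 FPKM in nESCs. It was called lower in pXEN cells than in pESCs (−1.15, SE 0.24, adjusted p = 0.00518) and not against nESCs (0.35, SE 0.25, adjusted p = 0.277), although it was also called against nESCs without pXEN line 2. The orphan member SLC7A4 was at 2.88 to 4.18 FPKM in pXEN cells and at most 0.415 FPKM in ESCs.

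**Figure D4:**
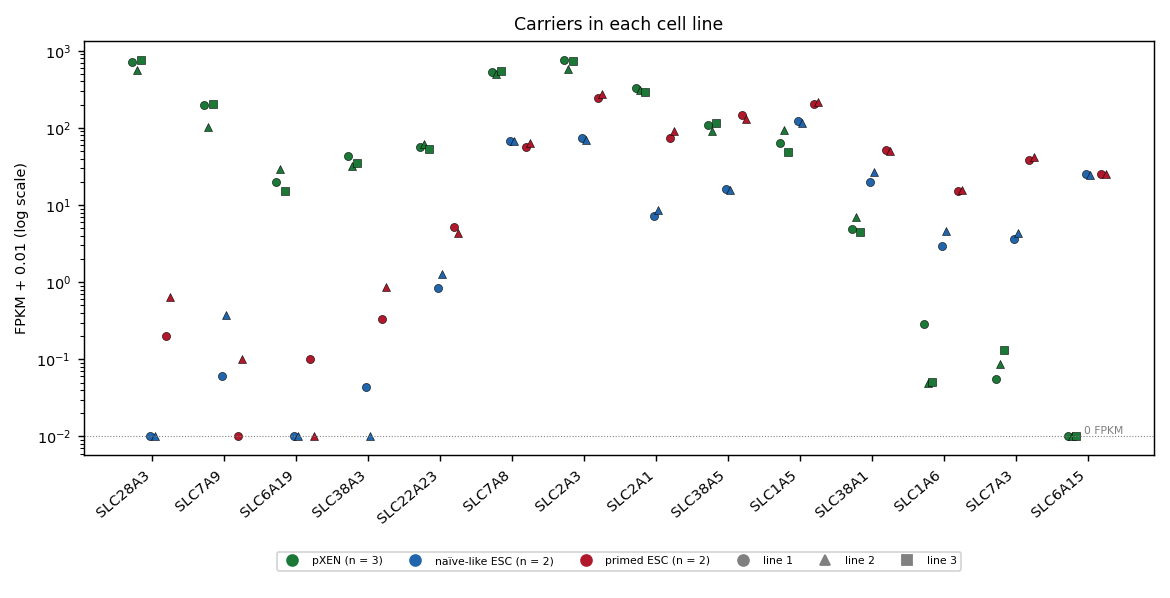
Level of 14 members in each line, as FPKM + 0.01 on a log axis, with the dotted line at 0 FPKM and point shapes giving the line number. From SLC28A3 to SLC2A1 the pXEN lines lay above all ESC lines, whereas from SLC1A5 to SLC6A15 they lay below them.

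The sodium-coupled carriers of neutral amino acids in the SLC38 family differed member by member, as the plot of members by line shows for 3 of them. SLC38A5, which carries glutamine, histidine and other neutral amino acids, was at 109, 91.8 and 117 FPKM in pXEN cells, 146 and 129 FPKM in pESCs and 16 and 15.4 FPKM in nESCs. It was higher than in nESCs in pXEN cells (log2 fold change 2.75, SE 0.14, adjusted p = 3.49e-06) and in pESCs (3.11, SE 0.15, adjusted p = 9.85e-06). The smaller difference between pXEN cells and pESCs (−0.37, SE 0.12, adjusted p = 0.0376) lost its call without pXEN line 1 or any 1 of the 4 ESC lines. It was not called either in the edgeR fit of only these cell types (adjusted p = 0.0564). SLC38A3, a glutamine carrier of liver and kidney, was at 42.6, 32.3 and 35.4 FPKM in pXEN cells, 0.0340 and 0 FPKM in nESCs and 0.327 and 0.858 FPKM in pESCs. It was higher in pXEN cells than in pESCs with a log2 fold change of 5.94 (SE 0.36, adjusted p = 1.27e-05; 6.79 without pESC line 2), and its ratio to nESCs, with 1 count there, was 2097 (95% counting interval 376 to 82871). SLC38A1, a glutamine carrier of many growing cells and neurons, had the opposite order. It was at 4.95, 7.0 and 4.52 FPKM in pXEN cells, 20.1 and 26.8 FPKM in nESCs and 52.2 and 49.6 FPKM in pESCs, with log2 fold changes of −2.10 (SE 0.21, adjusted p = 9.35e-05) and −3.20 (SE 0.21, adjusted p = 1.88e-05) in pXEN cells. Its difference between the ESC types (1.10, SE 0.22, adjusted p = 0.00734) lost its call without nESC line 1 or pESC line 1.

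SLC38A10 varied little, between 28.9 and 37.6 FPKM in all lines, and was called in no comparison. SLC38A6, at 2.64 to 3.92 FPKM, was not called either. The lysosomal member SLC38A9, at 3.36 to 5.26 FPKM, was called higher in pXEN cells than in pESCs (log2 fold change 0.56, SE 0.14, adjusted p = 0.0129). This call was lost without either pESC line, and with limma on log2(FPKM + 0.1) and on log2(FPKM + 1). SLC38A2, a carrier that amino acid shortage induces, was the symbol of 2 identifiers on chromosome 5, which lie apart and on opposite strands. The first (ENSSSCG00000000808) was at 26.5, 39.2 and 28.6 FPKM in pXEN cells, 8.97 and 20.0 FPKM in nESCs and 23.8 and 43.3 FPKM in pESCs. Its call against nESCs (log2 fold change 1.11, SE 0.39, adjusted p = 0.0402) was lost when any 1 pXEN line or nESC line 1 was left out, and with upper-quartile scaling, while the estimate was 1.81 without nESC line 2. The second identifier took 31.9% of the counts of the pair in nESC line 1 (exact 95% interval 26.7% to 37.5%) and 20.0% in pESC line 1 (17.1% to 23.1%). In the other 5 libraries it took between 1.12% and 2.47%. Whether these are reads of 1 gene divided between identifiers, or of separate loci, was not tested.

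In the SLC1 family, the abundant member was lowest in pXEN cells. SLC1A5, an exchanger of glutamine and other neutral amino acids (ENSSSCG00000003105, chromosome 6, 47968136 to 48032120), was at 63.8, 92.7 and 49.4 FPKM in pXEN cells, 124 and 115 FPKM in nESCs and 207 and 219 FPKM in pESCs. It was lower in pXEN cells than in pESCs (log2 fold change −1.62, SE 0.23, adjusted p = 0.000768). Its differences between pXEN cells and nESCs (−0.80, SE 0.23, adjusted p = 0.0183) and between the ESC types (0.82, SE 0.26, adjusted p = 0.042) were smaller, and lost their calls without pXEN line 1 or either nESC line, the second also without either pESC line. SLC1A4, which carries alanine, serine and cysteine, was at 29.5 to 30.2 FPKM in pXEN cells and 31.8 and 34.9 FPKM in pESCs, above 11.7 and 11.9 FPKM in nESCs. A row without a symbol (ENSSSCG00000028282) also matched SLC1A4 by gene identifier. That row was at 23.8 to 25.0 FPKM in pXEN cells, 9.27 and 11.2 FPKM in nESCs and 30.8 and 31.1 FPKM in pESCs. It was not called between pXEN cells and pESCs (log2 fold change −0.35, SE 0.13, adjusted p = 0.0573).

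The glutamate carriers of the family did not share one order. SLC1A1 was highest in pXEN cells, SLC1A3 and SLC1A7 in nESCs, and SLC1A6 in pESCs. SLC1A1, the glutamate carrier of kidney and gut epithelia, was at 11.7, 25.1 and 8.99 FPKM in pXEN cells, highest in line 2, and between 0.131 and 0.832 FPKM in ESC lines (log2 fold changes 4.38, SE 0.57, adjusted p = 0.000391 and 5.83, SE 0.64, adjusted p = 0.000216, the second 6.84 without pESC line 2). SLC1A3, best known from glia, was at 7.38 and 7.92 FPKM in nESCs, 0.381 to 0.478 FPKM in pXEN cells and 0.0415 and 0.116 FPKM in pESCs. Its log2 fold change in pXEN cells against nESCs was −4.12 (SE 0.33, adjusted p = 3.14e-05), or −3.38 after the median of chromosome 16, on which it lies, was subtracted. SLC1A6, a neuronal glutamate carrier, was at 15.2 and 15.5 FPKM in pESCs, 2.94 and 4.63 FPKM in nESCs and at most 0.275 FPKM in pXEN cells. SLC1A7, a glutamate carrier of the retina, was at 5.37 and 7.20 FPKM in nESCs, 1.13 and 0.264 FPKM in pESCs and 0.181 to 0.618 FPKM in pXEN cells.

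The SLC6 rows with a symbol in the tables had a different leading member in pXEN cells and in ESCs. SLC6A8, listed without a symbol and so no member, was at 161, 205 and 136 FPKM in pXEN cells and 33.8 and 28.9 FPKM in pESCs, above every SLC6 member there. SLC6A19, the main carrier of neutral amino acids on the apical side of gut and kidney epithelia (ENSSSCG00000017120, chromosome 16, 85952485 to 85969528), was at 20.2, 29.3 and 15.3 FPKM in pXEN cells, had no count in nESCs and was at 0.0901 and 0 FPKM in pESCs. Set against the floor, pXEN cells exceeded nESCs at least 301-fold (adjusted p = 3.85e-05), and its log2 fold change against pESCs was 8.86 (SE 0.65, adjusted p = 6.49e-05). This estimate was 7.86 without pESC line 2, which had no count, and 12.79 without pESC line 1. Neighbouring SLC6A18 had no count in any library, and SLC6A3 beside it had none in pXEN cells. SLC6A15, a neutral amino acid carrier of brain, was at 25.5 and 24.2 FPKM in nESCs and 25.5 and 25.4 FPKM in pESCs, a difference of 0.02 on the log2 scale (SE 0.14, adjusted p = 0.938). The plot of members by line shows SLC6A19 and SLC6A15 on opposite sides. Some markers of neural cells were also lower in pXEN cells. Of 8 such genes, 7 had a row and 6 were tested, of which 4 were called lower in pXEN cells than in each ESC type. DCX was called higher than in nESCs, and NES was not called, at 27.6, 45.6 and 34.9 FPKM in pXEN cells and 5.74 to 30.4 FPKM in ESC lines. Summed, the 7 genes were at 275 and 416 FPKM in nESCs, 542 and 527 FPKM in pESCs and 31.4, 56.3 and 41.3 FPKM in pXEN cells, with NEUROD1 at 3 counts or fewer in every library. STMN2 and TUBB3 held most of the sum in ESC lines and went in opposite directions between the ESC types. STMN2 was at 62.3 and 113 FPKM in nESCs and 416 and 425 FPKM in pESCs. TUBB3 was at 192 and 249 FPKM in nESCs and 88.4 and 65.3 FPKM in pESCs. Of the 6 tested genes, 2 were called higher and 1 lower in pESCs than in nESCs. The part of these cells in the difference was not tested. TMEM27, a membrane protein that helps SLC6A19 to reach the cell surface, was also higher in pXEN cells. It was at 10.1, 6.20 and 11.6 FPKM in pXEN cells and at most 0.0860 FPKM in ESCs.

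Among the monocarboxylate carriers, SLC16A1 led in every library. SLC16A1, which moves lactate and pyruvate with protons, was at 265, 363 and 251 FPKM in pXEN cells, 174 and 157 FPKM in nESCs and 233 and 254 FPKM in pESCs. It was called higher in pXEN cells than in nESCs (log2 fold change 0.82, SE 0.17, adjusted p = 0.00448), and the lines overlapped with those of pESCs (0.28, SE 0.17, adjusted p = 0.214). Between pESCs and nESCs it was not called (0.54, SE 0.18, adjusted p = 0.0559), but it was called higher in pESCs under 7 alternatives, among them DESeq2 (adjusted p = 0.0179) and the fit without pXEN line 2 (adjusted p = 0.00131). Its subunit BSG was at 126 to 134 FPKM in pXEN cells, 72.7 and 61.8 FPKM in nESCs and 98.8 and 115 FPKM in pESCs. SLC16A12, a carrier of creatine, was at 23.2, 24.6 and 17.9 FPKM in pXEN cells, 6.28 and 0.856 FPKM in nESCs and 1.46 and 1.91 FPKM in pESCs (log2 fold changes 2.61, SE 0.65, adjusted p = 0.00991 and 3.70, SE 0.70, adjusted p = 0.0032). Its estimate against nESCs was 4.66 without nESC line 1 and 1.80 without nESC line 2, and without line 2 it was also called between the ESC types. The lactate exporter SLC16A3 was at 3.67, 4.87 and 8.30 FPKM in pXEN cells and 2.53 and 1.93 FPKM in nESCs, and was called between them (1.32, SE 0.41, adjusted p = 0.0251) in the fit of all lines, a call lost without pXEN line 3 or either nESC line and with the replicate block. Of the 8 tested members, 6 were called higher and none lower in pXEN cells against nESCs, and 2 higher and none lower against pESCs, where over all genes 28.3% and 23.9% were called higher.

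The organic ion carriers were led by SLC22A23 in pXEN cells and by SLC22A17 in the ESCs. SLC22A23, an orphan member, was at 56.3, 62.2 and 52.5 FPKM in pXEN cells, 0.820 and 1.28 FPKM in nESCs and 5.12 and 4.28 FPKM in pESCs. All 3 comparisons were called, with log2 fold changes of 5.76 (SE 0.23, adjusted p = 1.29e-06), 3.61 (SE 0.19, adjusted p = 6.72e-06) and 2.15 in pESCs against nESCs (SE 0.23, adjusted p = 0.000426). SLC22A17, a receptor for lipocalin 2, was at 34.6, 47.0 and 33.5 FPKM in pXEN cells, 22.6 and 23.0 FPKM in nESCs and 45.0 and 43.1 FPKM in pESCs. SLC22A18, an imprinted gene in other mammals, was at 11.9, 13.8 and 15.3 FPKM in pXEN cells and at most 0.105 FPKM in ESCs. Its ratio to nESCs, which held 1 count, was 266 (95% counting interval 47.5 to 10547) and that to pESCs, which held 2, was 147 (40.5 to 1221). SLC22A15 went the other way, at 1.76 to 2.13 FPKM in the ESC lines and 0, 0.0676 and 0 FPKM in pXEN cells. The carnitine carrier SLC22A5 was at 6.57, 9.40 and 7.08 FPKM in pXEN cells, 6.09 and 5.88 FPKM in nESCs and 3.85 and 3.27 FPKM in pESCs, and was called against pESCs (log2 fold change 1.12, SE 0.24, adjusted p = 0.00563), a call lost without pESC line 2.

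Small classes completed the repertoire. The peptide carrier SLC15A1, the intestinal uptake route for small peptides, was at 3.91, 9.25 and 3.04 FPKM in pXEN cells, 0.124 and 0.0257 FPKM in nESCs and 8.29 and 9.39 FPKM in pESCs. It was higher than in nESCs in pXEN cells (log2 fold change 6.10, SE 0.77, adjusted p = 0.00033) and in pESCs (6.80, SE 0.78, adjusted p = 0.000593). These estimates were 7.54 and 8.24 without nESC line 1, 5.41 and 6.11 without nESC line 2, and the first was 5.45 without pXEN line 2. Only pXEN line 2 overlapped with the pESC lines, and without it SLC15A1 was called lower in pXEN cells than in pESCs (log2 fold change −1.34, adjusted p = 0.00178). SLC15A4, a lysosomal carrier of histidine and peptides, was at 12.5 to 15.3 FPKM in pXEN cells, 7.34 and 7.78 FPKM in nESCs and 16.4 and 16.6 FPKM in pESCs. SLC43A2, a facilitative carrier of large neutral amino acids, was at 77.2, 112 and 54.7 FPKM in pXEN cells, 13.5 and 13.9 FPKM in nESCs and 7.56 and 5.66 FPKM in pESCs, and the pXEN lines exceeded each ESC type (log2 fold changes 2.57, SE 0.31, adjusted p = 0.000247 and 3.63, SE 0.33, adjusted p = 8.3e-05).

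All 3 carriers of iodide, vitamins and choline were called lower in pXEN cells than in pESCs, and 1 of them, SLC5A6, also against nESCs, where 24.4% and 26.2% of all genes were called lower. SLC5A6, which takes up biotin and pantothenate with sodium, was at 22.8, 25.2 and 24.0 FPKM in pXEN cells, 65.4 and 52.7 FPKM in nESCs and 38.9 and 41.0 FPKM in pESCs. It was called lower in pXEN cells than in nESCs (log2 fold change −1.30, SE 0.12, adjusted p = 5.61e-05) and pESCs (−0.73, SE 0.12, adjusted p = 0.0016). SLC5A7, the neuronal choline carrier, was at 2.60 and 3.17 FPKM in pESCs, 0 and 0.0950 FPKM in nESCs and had no count in pXEN cells, which is at least 18.5-fold lower than in pESCs (adjusted p = 0.00106). SLC5A5, the iodide carrier of the thyroid, was at 4.20 and 2.45 FPKM in pESCs and at most 0.213 FPKM in the other lines.

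Proteins that hold carriers in the membrane or use what they bring in, among others, were described from a list of 27 symbols, of which 22 had a row and 21 were tested. In pXEN cells 10 were called higher and 5 lower against nESCs, 11 higher and 5 lower against pESCs, and in pESCs 7 higher and 4 lower against nESCs. The calls over all genes in these comparisons were 54.5%, 48.3% and 32.2%, as given above. The scaffold PDZK1, which anchors carriers at the apical membrane, was at 9.95, 13.8 and 8.80 FPKM in pXEN cells, had no count in nESCs and was at 0.166 and 0.0621 FPKM in pESCs. Among the hexokinases, which trap glucose after uptake, HK1 and HK2 were lower in pXEN cells although SLC2A1 and SLC2A3 were higher. HK2 was at 6.97, 6.58 and 9.94 FPKM in pXEN cells, 25.1 and 26.5 FPKM in nESCs and 31.8 and 32.9 FPKM in pESCs (log2 fold changes −1.73, SE 0.17, adjusted p = 9.69e-05 and −2.04, SE 0.17, adjusted p = 6.21e-05). TXNIP, which lowers glucose carriers at the cell surface and is itself induced by glucose, was at 28.2, 25.3 and 38.8 FPKM in pXEN cells, 15.3 and 12.0 FPKM in nESCs and 0.314 and 0.540 FPKM in pESCs (log2 fold change −4.99 in pESCs against nESCs, SE 0.33, adjusted p = 4.25e-05).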

How the data were processed

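RNA-seq of 7 porcine lines was analysed from 2 tables. The authors deposited unnormalized read counts per gene, and FPKM values, which here equal counts divided by the listed length and a library total, which was 1.00 to 1.02 times the TMM-scaled total of counts and not the total itself. The submitters' processing notes name HISAT2 2.0.5, featureCounts 1.5.0-p3, edgeR 3.22.5 and build Sscrofa10.2. Libraries were directional and rRNA-depleted, and the strand setting of counting is not given in the sources used here, so reads of overlapping genes may be divided between them. Counts were tested with edgeR 4.0.16 (R 4.3.3): TMM, filterByExpr, and a quasi-likelihood fit of all 7 libraries, with Benjamini-Hochberg adjustment and a threshold of 0.05. On simulated counts for pXEN cells against nESCs over 17447 genes, the fit recovered 22.0% of 2-fold and 100% of 4-fold changes. Few genes were changed in the simulation and all were given the same spread, unlike in the real data. These shares therefore do not give the sensitivity of the fit to the real data. Members at 0 in a group were set against 3 counts per library. Those with 1 to 3 counts in the lower group are given as ratios with exact intervals. The plan gave full statistics to the most abundant member of each class in each cell type. It also gave them, per comparison and direction, to the 8 called members with the largest estimates, no overlap and a mean of at least 1 FPKM. Several of these members were given by values only, without a fold change or its SE, and SLC38A11 was left out. Other members were named by values. Members, classes and lists were chosen with earlier results of these data known. Same-numbered lines did not deviate together (r of −0.00892 to 0.0442). The alternatives were other scalings, filters, DESeq2 1.42.0, limma 3.58.1 on log2(FPKM + 0.1) and log2(FPKM + 1), fits of only the cell types compared, a replicate block, subtraction of chromosome medians and leaving out each line. Results that need items withheld for evaluation are not reported here.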

Additional observations from a re-analysis of the deposited data

How the results depend on the processing

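No called member changed direction under any alternative that was run. With at least 10 counts required in every library, which removes genes absent from 1 cell type, 29 members were tested, of which 16 were called higher and 5 lower in pXEN cells against nESCs, 10 higher and 6 lower against pESCs, and 12 higher and 3 lower in pESCs against nESCs, where 27.5% and 27.1%, 23.5% and 22.6%, and 16.8% and 14.9% of all genes were so called. A level of 5 FPKM in every line was reached by 25 members in pXEN cells, 22 in nESCs and 23 in pESCs. Leaving out each line in turn gave 32 to 36 members higher and 13 to 20 lower in pXEN cells against nESCs, 23 to 26 higher and 15 to 22 lower against pESCs, and 18 to 26 higher and 1 to 10 lower in pESCs against nESCs. A cell type left with 1 line was assumed to vary like the others. The count of 7 members lower in pESCs than in nESCs fell to 2 without nESC line 1 or pESC line 1 and to 1 without pESC line 2. The cause was not tested. With the replicate block, which pairs lines by number although they share only a number, 35 members were higher and 13 lower in pXEN cells against nESCs, and 47, 40 and 28 of the 52, 44 and 31 calls were kept. At this depth, members at or under 3 counts cannot be told from absent ones.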

Other observations

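Of the 20 rows of the same families that carry no symbol in the tables, SLC3A2, SLC6A8 and SLC6A6 had calls in all 3 comparisons, with pXEN cells highest and nESCs lowest, like the glucose carriers SLC2A1 and SLC2A3. SLC6A8, which takes up creatine, was at 161, 205 and 136 FPKM in pXEN cells, 0.569 and 1.80 FPKM in nESCs and 33.8 and 28.9 FPKM in pESCs, with log2 fold changes of 7.14 (SE 0.45, adjusted p = 8.77e-06), 2.43 (SE 0.33, adjusted p = 0.00063) and 4.71 in pESCs against nESCs (SE 0.42, adjusted p = 0.000178). Its level in pXEN cells exceeded the summed level of all SLC6 members, so SLC6 sums over rows with a symbol leave out the most abundant row in these cells. SLC6A6, which takes up taurine, was at 10.3, 11.1 and 16.7 FPKM in pXEN cells, 0.308 and 0.912 FPKM in nESCs and 7.09 and 4.71 FPKM in pESCs.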
